A study of Mus musculus with 18 samples.

Results

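The genes described here are 10 regulators of transcription after meiosis, of the 54232 genes in the count table: Crem, Fhl5, Tbpl1, Taf7l, Gtf2a1l, Rfx2, Sox30, Sox5, Tcfl5 and Mybl1. They were chosen by name for their known roles in spermatids or in the meiotic cells before them, with earlier results of these data known. All 10 passed the filter on low counts. RNA was measured in round spermatids (RS), the haploid germ cells that follow meiosis and have not yet elongated, isolated from testes of mice between 75 and 85 days of age. The 3 genotypes were wild type (WT), GRTH-KO (KO) and GRTH-KI (KI), with 6 libraries in each and 18 in all. GRTH is the RNA helicase encoded by Ddx25, a testis protein that exports and stores mRNAs of spermatids. KO mice lack it, and KI mice, as the study describes them, carry a human GRTH gene with a missense mutation and lack the phosphorylated form of the protein. RS were enriched from dispersed tubules and were not sorted by a marker, and the labels do not say which animals gave which library. The question was whether the regulators change in mutant RS, in which genes of late spermatids were low.

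Transcription in RS depends on factors that differ from those of other cells. CREM binds cAMP response elements and, with its coactivator FHL5 (ACT), switches on protamine, transition protein and sperm tail genes. TBPL1, TAF7L and GTF2A1L are germ cell versions of general factors that load RNA polymerase, RFX2 acts on genes of the cilium and flagellum, SOX30 and SOX5 are HMG box factors, and TCFL5 and MYBL1 (A-MYB) act already in pachytene spermatocytes.

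The libraries held from 18766971 to 26776555 counts. Levels below are normalized CPM, the counts of a gene as a share of the library scaled with TMM factors. Ddx25 lay between 538 and 607 CPM in WT, between 47.7 and 90.9 in KO, and between 0.0456 and 0.519 in 5 of the 6 KI libraries. The library labelled KI 4 had 56.9 CPM, within the KO range. It also lay closer to KO 2 than any other pair of libraries lay to each other, with a median squared difference 1.59 times that of counting noise, and over the 10 regulators it differed from KO 2 by a median of 0.02 log2 units. Values without it are therefore given for the regulators that passed in KI, for KI against KO and for the counts of genes called. Without it, 4 regulators passed in KI against WT in place of 5, with a median log2 fold change of -0.28, beside 8 of 8 CREM targets, 17 of 18 late spermatid genes, 15 of 32 relatives and partners, 0 of 10 genes of the cilium and flagellum, and 2 of 8 MYBL1 targets in place of 1. The 15 relatives and partners were then 8 higher and 7 lower, in place of 9 and 6. In a subset of 39 genes, the regulators included, compared singly in KI against WT, Tcfl5 alone changed its side of the threshold. Genes of the lists outside this subset changed sides too, as the counts of MYBL1 targets and of relatives show. Close pairs lay within genotypes as well (WT 1 and 2, WT 3 and 4, WT 5 and 6, KO 4 and 5, KI 1 and 2, KI 3 and 5, at 2.12 to 3.02 times counting noise), and the next closest pair lay at 4.64 times. No source says whether these libraries share an animal, so p-values measure the spread between these libraries, which may be partly technical.

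All 10 regulators were well expressed in WT RS, with between 775 and 9701 counts in each WT library. Between genes, levels were compared as RPKM, the normalized CPM per kb of annotated exon. Gtf2a1l had the highest level at 190 ± 13.1 RPKM (SD, n = 6), and its range did not overlap the next. Tbpl1 at 115 ± 21.1 RPKM and Tcfl5 at 102 ± 5.45 RPKM overlapped each other. Sox30, Fhl5, Crem and Rfx2 followed as a group of overlapping neighbors, with mean levels from 69.6 down to 58.8 RPKM. Sox5 at 24.7 ± 4.99 RPKM, Taf7l at 21.9 ± 5.83 RPKM and Mybl1 at 16.7 ± 3.32 RPKM were lowest, and each overlapped its neighbor. Sox5 has 14376 bases of annotated exon, so a short germ cell transcript would be understated per length.

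**Figure D1:**
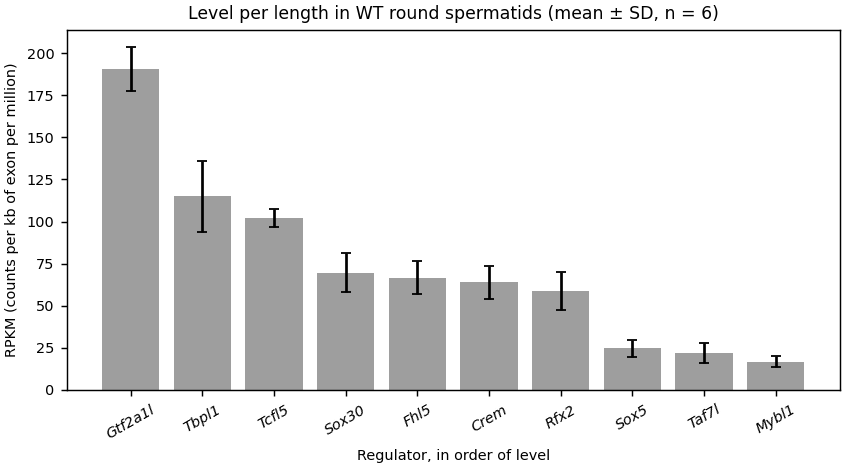
Bars show the mean level of each regulator in WT RS in RPKM, with the SD over 6 libraries. Gtf2a1l stands highest at 190 RPKM and Mybl1 lowest at 16.7 RPKM.

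In KO RS, 4 regulators were downregulated (Crem, Fhl5, Sox5 and Tbpl1), 1 was upregulated (Mybl1) and 5 did not pass the test (edgeR's quasi-likelihood test for any change, adjusted p under 0.1). Of the 21058 genes tested, 29.9% passed in this comparison, 13.5% lower and 16.4% higher. In KI RS, the genes that passed were Crem, Fhl5, Sox5 and Tcfl5, all lower, and Mybl1, higher, beside 31.6% of all genes tested, 15.4% lower and 16.1% higher. None of the 10 passed when tested for a change above 1 log2 unit, which 1.73% of genes passed in KO and 1.95% in KI. The median log2 fold change of the regulators was -0.22 in KO and -0.29 in KI, where the median over all genes tested was 0.03 and 0.05. Both comparisons use the same WT libraries. In isolated cells measured in bulk, fewer cells of a kind and less RNA per cell cannot be told apart.

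**Figure D2:**
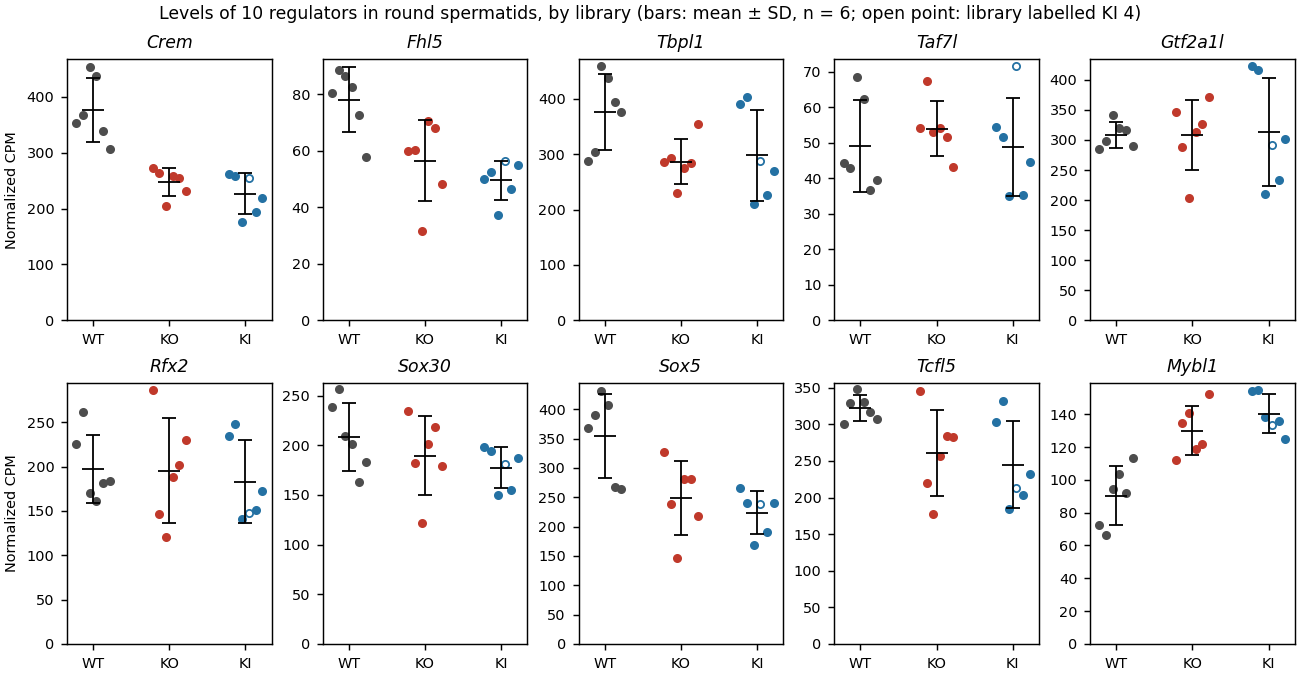
Each panel shows 1 regulator, with normalized CPM on an axis that starts at 0 and each point 1 library in WT, KO or KI; bars are the mean and SD (n = 6), and the open point is the library labelled KI 4. Crem in the mutants lies below every WT library, Mybl1 lies above WT in KI, and Rfx2 and Gtf2a1l overlap across genotypes.

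Crem (ENSMUSG00000063889; GRCm38 chromosome 18, 3266048 to 3337748, minus strand) had the lowest adjusted p of the regulators in both comparisons. Its level in WT ran from 307 to 453 CPM with a median of 360.3. In KO it ran from 204 to 272 CPM, median 257, and in KI from 175 to 262 CPM, median 236. Each of the 12 mutant libraries lay below each of the 6 WT libraries, a separation toward lower values that 6.44% of all genes tested showed in KO and 7.91% in KI. Crem fell by 0.60 on the log2 scale in KO (SE 0.13, 95% interval -0.88 to -0.33, adjusted p = 0.0019 by edgeR) and by 0.73 in KI (SE 0.13, interval -1.01 to -0.45, adjusted p = 2.84e-04). Without the library labelled KI 4 the KI value was -0.76 (edgeR adjusted p = 4.43e-04). The counts are per gene and do not separate the CREM activator transcripts from ICER, the repressor made from an internal promoter of Crem.

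Fhl5 (ENSMUSG00000028259; chromosome 4, 25199908 to 25242876, minus strand) encodes the LIM protein ACT, which binds CREM and drives its activity without phosphorylation. It ran from 57.6 to 88.5 CPM in WT (median 81.6), from 31.8 to 70.6 CPM in KO (median 60.0) and from 37.3 to 56.3 CPM in KI (median 51.2). The KI libraries all lay below WT, while KO overlapped WT through WT 6, the lowest WT library. Fhl5 fell by 0.47 on the log2 scale in KO (SE 0.16, edgeR adjusted p = 0.0388) and by 0.66 in KI (SE 0.16, adjusted p = 0.0043; without the library labelled KI 4, -0.70 and adjusted p = 0.0051). Of its relatives, Fhl4, another testis LIM protein, was also lower (-0.54 in KO, -0.56 in KI, edgeR adjusted p = 0.0513 and 0.0421). Fhl2, a LIM protein of heart, passed as higher, but it had at most 20 counts in any library.

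The listed CREM targets fell far more than Crem. All 8 on the list (Prm1, Prm2, Tnp1, Tnp2, Odf1, Smcp, Ace and Camk4) were downregulated in both mutants with no overlap with WT, by a median log2 fold change of -1.93 in KO and -2.08 in KI. The list was chosen with earlier results of these data known, so the fall of all 8 describes chosen genes and is not an independent test. The fall passed the test against 1 log2 unit for 6 of the 8 in KO and 7 of the 8 in KI, beside 1.13% and 1.43% of genes lower by this test. Prm2, a protamine that packs sperm DNA, ran from 4718 to 6800 CPM in WT, from 255 to 782 in KO and from 394 to 568 in KI. It had the greatest fall of the 8, with log2 fold changes of -3.36 ± 0.22 (SE) in KO and -3.53 ± 0.22 in KI. Camk4, whose gene also yields the spermatid protein calspermin, had the smallest, -1.01 ± 0.16 in KO and -1.23 ± 0.16 in KI. The intervals of Crem (-0.88 to -0.33 in KO) and of 7 of these targets (highest bound -1.11, Ace) did not meet in KO, and that of Camk4 (-1.35 to -0.68) did.

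**Figure D3:**
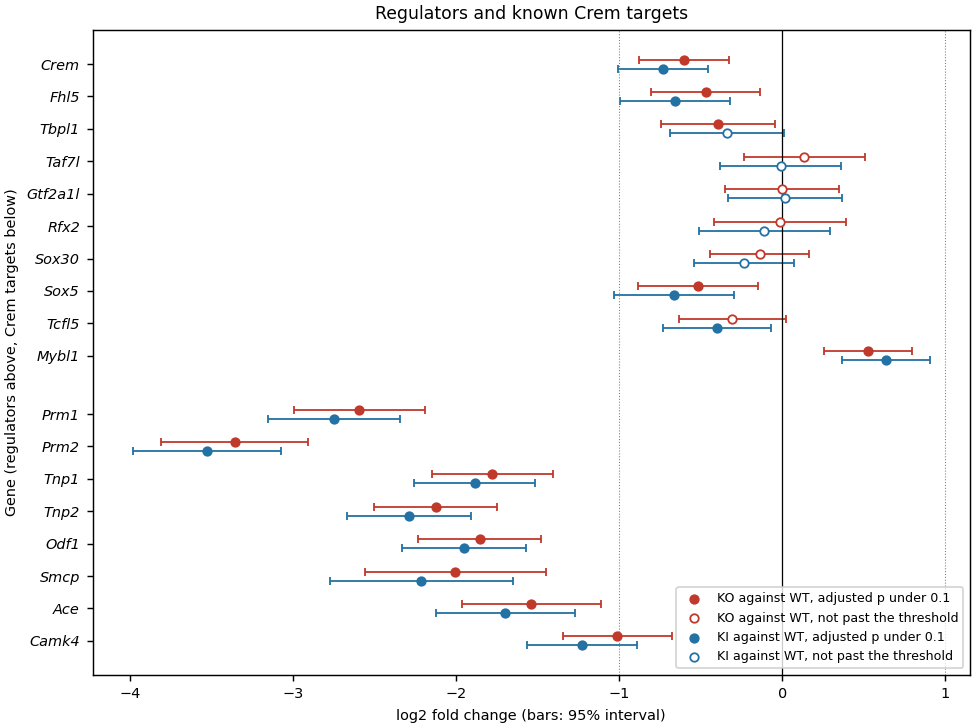
Points show the log2 fold change of the 10 regulators (upper rows) and 8 CREM targets (lower rows) in KO and KI against WT, with 95% intervals; filled points have an adjusted p under 0.1 and dotted lines mark 1 log2 unit. The regulators lie between -0.73 and 0.64, and the targets between -3.53 and -1.01.

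The 8 targets together ran from 12521 to 17481 CPM in WT, from 1533 to 3642 CPM in KO and from 1965 to 3090 CPM in KI. In WT, Prm2 made up more of this sum on average than any other gene. Per CPM of Crem, WT libraries held 31.9 to 49.3 CPM of target RNA, KO libraries 7.52 to 14.1 and KI libraries 10.4 to 12.9. The ratio thus did not overlap between WT and either mutant. Among WT libraries, WT 3 and WT 4 had the most Crem (453 and 437 CPM) but not the most target RNA (15770 and 13941 CPM, against 16899 in WT 1 and 17481 in WT 2). KO 3, with the least Crem of the KO libraries, also had the least target RNA, 1533 CPM, and KI 3, lowest in Crem among KI, had the least of KI, 1965 CPM.

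**Figure D4:**
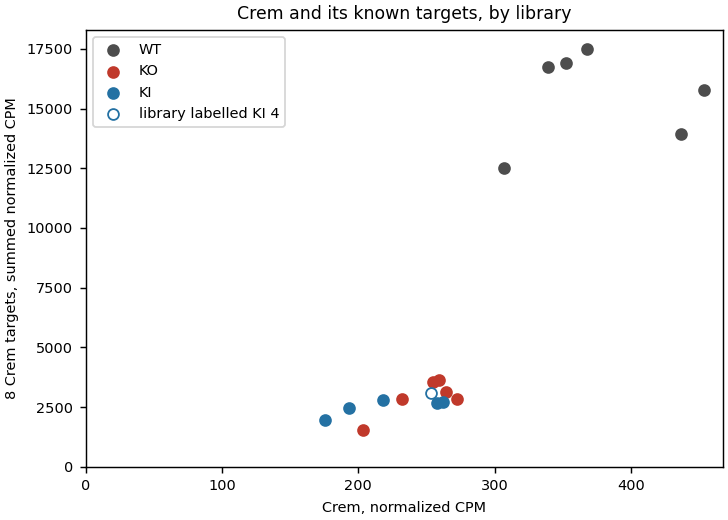
Each point is 1 library, with Crem in normalized CPM on the horizontal axis and the summed normalized CPM of the 8 targets on the vertical axis, both starting at 0. The 6 WT libraries lie between 12521 and 17481 CPM of target RNA, and the 12 mutant libraries between 1533 and 3642.

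A sequence motif like the cAMP response element was read in RefSeq promoters (GRCm38.p6, 250 bases before to 50 after each start), which were matched for 8 of the 10 regulators (all but Crem and Mybl1). The letters TGANNTCA, searched on both strands, were present in 14.1% of 32851 promoters and in 15.9% of 27025 genes. They were found for 4 of the 6 CREM targets with a promoter, for 8 of 16 late spermatid genes, and for 3 of the 8 regulators (Fhl5, Sox30 and Tcfl5). Prm2, which had the greatest fall of the targets, did not hold them. They were also found for 2 of 8 matched genes of the cilium and flagellum, Bbs4 and Spag6l, which passed in neither mutant. The motif was chosen after the values were seen, and a match is a description and not a site of binding. The 4 stretches below show it, in capitals, in the CREM coactivator and in 3 genes that fell in the mutants, each read 5′ to 3′ on the strand of the gene; Prm3 is a protamine-like gene next to Prm1 and Prm2, and the Ace start is the internal one of the testis form.
Fhl5, chr4:25242853-25242972, minus strand: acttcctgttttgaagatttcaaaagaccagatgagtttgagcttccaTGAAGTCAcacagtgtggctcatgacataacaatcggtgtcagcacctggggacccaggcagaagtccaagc
Prm1, chr16:10796824-10796943, minus strand: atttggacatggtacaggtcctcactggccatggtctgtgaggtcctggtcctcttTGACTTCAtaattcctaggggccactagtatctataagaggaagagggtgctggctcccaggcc
Prm3, chr16:10790915-10791034, minus strand: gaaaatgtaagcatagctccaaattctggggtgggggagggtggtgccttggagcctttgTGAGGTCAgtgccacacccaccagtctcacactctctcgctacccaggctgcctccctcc
Ace, chr11:105975069-105975188, plus strand: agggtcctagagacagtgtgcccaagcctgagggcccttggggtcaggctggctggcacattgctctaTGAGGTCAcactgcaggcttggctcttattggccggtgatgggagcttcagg
The letters began 72 bases before the start in Fhl5, 64 in Prm1, 60 in Prm3 and 52 in Ace.

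Among 18 late spermatid genes, of which 6 are also on the list of CREM targets, 16 were downregulated in KO and 17 in KI, 13 of them past 1 log2 unit in each. Of all genes tested, 13.5% were lower in KO and 15.4% in KI. This list, too, was chosen with earlier results of these data known. The median log2 fold change was -2.11 in KO and -2.31 in KI. Tssk6, a kinase of late spermatids, had -2.92 in KO and -3.12 in KI, and Spem1, needed to shed the cytoplasm, had -2.75 and -2.93. Odf3, which encodes an outer dense fiber protein of the tail, passed in neither mutant (-0.18 ± 0.21 in KO, -0.35 ± 0.21 in KI). Akap3, a scaffold of the fibrous sheath, passed in KI (-0.82 ± 0.28) and not in KO (-0.59 ± 0.28).

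**Figure D5:**
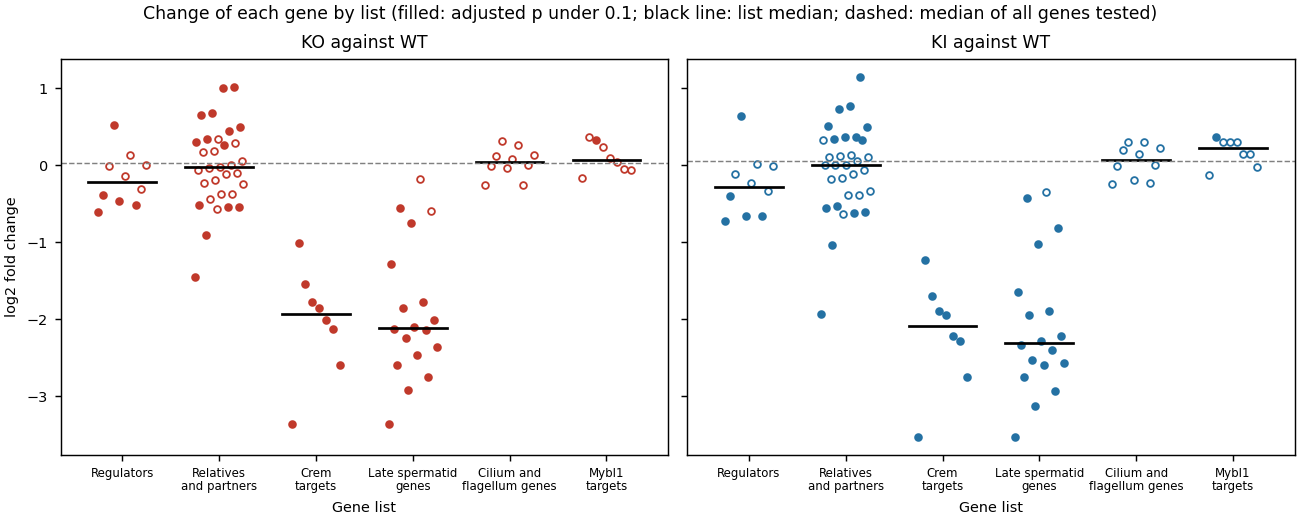
Each point is the log2 fold change of 1 gene in KO (left) or KI (right) against WT, by gene list; filled points have an adjusted p under 0.1, black lines are list medians, and the dashed line is the median of all genes tested. CREM targets and late spermatid genes have medians between -2.31 and -1.93, while the regulators have medians of -0.22 and -0.29.

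Other partners of CREM did not move together. Kif17, a motor protein that carries ACT between nucleus and cytoplasm, ran from 271 to 503 CPM in WT, from 31.5 to 330.3 CPM in KO and from 58.8 to 125 CPM in KI. Its log2 fold change was -1.45 ± 0.36 in KO and -1.93 ± 0.37 in KI (edgeR adjusted p = 0.0053 and 4.62e-04). Crebbp and Ep300, coactivators used by many factors, were slightly higher in both (0.34 and 0.30 in KO, 0.33 and 0.34 in KI). Creb1, the widely expressed relative of CREM, did not pass (-0.12 ± 0.15 in KO, 0.00 in KI), and in WT the mean ratio of Crem to Creb1 was 26.4 per length. Part of that ratio comes from the annotated exon, 13742 bases in Creb1 and 5895 in Crem. The WT means before scaling by length were 376 CPM for Crem and 33.6 CPM for Creb1.

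Of the 3 germ cell versions of general factors, Tbpl1 passed in KO alone and Taf7l and Gtf2a1l in neither mutant. Tbpl1 (ENSMUSG00000071359; chromosome 10, 22703879 to 22731938, minus strand), which encodes the TBP-like factor needed for RS to develop, ran from 288 to 459 CPM in WT, from 229 to 354 in KO and from 210.0 to 404 in KI, and the groups overlapped. It passed narrowly in KO, with a log2 fold change of -0.39 ± 0.17 (SE) and an adjusted p of 0.0983 by edgeR, and not in KI, with -0.34 ± 0.17 and 0.156. When libraries were left out singly, the KO call held in 7 of 18 fits. Its tail end overlaps Slc2a12 on the other strand, and the authors counted by strand.

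Gtf2a1l (ENSMUSG00000024154; chromosome 17, 88668660 to 88715152, plus strand) encodes ALF, the germ cell form of the large TFIIA subunit. Its mean level was 309 ± 21.3 CPM in WT (SD, n = 6), which compares with 308 ± 58.8 CPM in KO and 313 ± 89.8 CPM in KI. The means lay close together and the SD was greater in the mutants, a difference that was not tested. Its log2 fold change was -0.00 in KO (95% interval -0.35 to 0.35) and 0.02 in KI (-0.33 to 0.37). Taf7l (ENSMUSG00000009596; chromosome X, 134460118 to 134476490, minus strand), the germ cell version of the TFIID subunit TAF7, averaged 49.1 CPM in WT libraries, 54.0 CPM in KO and 48.9 CPM in KI, with log2 fold changes of 0.14 ± 0.18 in KO and -0.01 ± 0.18 in KI. A miss of the threshold does not show that these genes kept their level, since the interval of Taf7l in KO reached 0.51.

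Of their widely expressed counterparts, Gtf2a1 and Taf7 were higher in both mutants. Gtf2a1 ran from 52.6 to 75.0 CPM in WT, from 74.1 to 94.0 in KO and from 78.3 to 97.8 in KI, a rise of 0.44 ± 0.11 log2 units in KO and 0.51 ± 0.11 in KI (edgeR adjusted p = 0.0045 and 0.0013). Taf7 rose by 0.50 ± 0.14 and 0.49 ± 0.14, while Tbp did not pass (-0.06 ± 0.15 and 0.10 ± 0.15). Per length, Gtf2a1l exceeded Gtf2a1 by a mean of 19.4 times in WT, 14.3 times in KO and 13.5 times in KI. The corresponding ratio of Taf7l to Taf7 was 3.20, 2.49 and 2.27, and that of Tbpl1 to Tbp was 5.16, 4.14 and 3.72. These ratios depend on the annotated exon, which is 13576 bases in Tbp and 3271 in Tbpl1, and 6241 in Gtf2a1 and 1621 in Gtf2a1l. Before scaling by length, the WT means were 376 CPM for Tbpl1 and 305 CPM for Tbp, so most of that ratio comes from the lengths. Gtf2a2, the small TFIIA subunit that pairs with either large form, was downregulated with no overlap, from 153 to 199.7 CPM in WT to 67.0 to 109.5 in KO and 61.2 to 106 in KI. Its log2 fold change was -0.90 ± 0.14 in KO and -1.04 ± 0.14 in KI (edgeR adjusted p = 7.28e-05 and 1.13e-05). Taf1, the large TFIID subunit, passed in KO only (0.68 ± 0.20, against 0.33 ± 0.20 in KI), and its difference between KI and KO did not pass. Of all 32 relatives and partners of the regulators, 9 were higher and 5 lower in KO and 9 were higher and 6 lower in KI. Over all genes tested, 16.4% were higher and 13.5% lower in KO, and 16.1% higher and 15.4% lower in KI, so the lower counts lie near those shares.

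Rfx2 (ENSMUSG00000024206; chromosome 17, 56775897 to 56831008, minus strand) overlapped fully between genotypes. It ran from 161 to 262 CPM in WT (median 183), from 120.4 to 286 in KO (median 195) and from 141 to 248 in KI (median 162). Its log2 fold change was -0.01 ± 0.19 in KO (95% interval -0.42 to 0.39) and -0.11 ± 0.19 in KI (-0.51 to 0.29). The relative Rfx3, which also acts on cilium genes, fell by 0.51 in KO and by 0.62 in KI on the log2 scale (SE 0.13 in both, edgeR adjusted p = 0.0067 and 0.0013). Of the 10 genes of the cilium and flagellum taken as an RFX type group, such as Ift172, Bbs4 and Spag6l, 0 passed edgeR's quasi-likelihood test in KO or in KI, with log2 fold changes between -0.26 and 0.32 in KO and between -0.24 and 0.30 in KI. Beside them, 29.9% of all genes tested passed in KO and 31.6% in KI. At an unadjusted p under 0.05, 1 of the 10 passed in KO (Spag16, -0.26 ± 0.12) and 0 in KI. DESeq2 called 1 of the 10 in KO and 0 in KI. Without KO 3 and KI 3, which held the lowest level of most regulators, 3 of the 10 passed in KO and 2 in KI. The letters GTTGCC, a part of the X-box that RFX factors bind, were found in the promoters of 6 of the 8 matched genes of this group, against 14.1% of all genes.

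Sox5 (ENSMUSG00000041540; chromosome 6, 143828425 to 144781977, minus strand), whose short form is made in spermatids, was lower in both mutants. It ran from 265 to 431 CPM in WT (median 379), from 146 to 327 in KO (median 259) and from 168 to 265 in KI (median 239.5). WT 5 and WT 6, at 267 and 265 CPM, were the WT libraries that reached the mutant range. Sox5 fell by 0.52 on the log2 scale in KO (SE 0.18, edgeR adjusted p = 0.0378) and by 0.66 in KI (SE 0.18, adjusted p = 0.0077; without the library labelled KI 4, -0.68 and adjusted p = 0.0121). Sox30 (ENSMUSG00000040489; chromosome 11, 45980310 to 46017994, plus strand), a factor needed for RS to proceed past their first steps, did not pass, with -0.14 ± 0.15 in KO and -0.23 ± 0.15 in KI. It ran from 164 to 256 CPM in WT, from 122 to 235 in KO and from 150.2 to 198 in KI.

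Tcfl5 (ENSMUSG00000038932; chromosome 2, 180621956 to 180642708, minus strand) is a bHLH factor of spermatocytes and RS whose gene overlaps the end of Col9a3 on the other strand. Its WT libraries were close to each other, 301 to 348 CPM, while KO ran from 178 to 346 and KI from 184 to 332. KO 1, KI 1 and KI 2 reached the WT range (346, 303 and 332 CPM). It passed in KI (-0.40 ± 0.16, edgeR adjusted p = 0.0729) and not in KO (-0.31 ± 0.16, adjusted p = 0.182), and without the library labelled KI 4 the KI value was -0.36 with an adjusted p of 0.135 by edgeR. When libraries were left out singly, the KI call held in 11 of 18 fits. Of the bHLH partners, Tcf12 rose from 7.20 to 12.1 CPM in WT to 13.3 to 25.8 in KO and 12.2 to 24.9 in KI, with no overlap. Its log2 fold change was 0.997 ± 0.17 in KO and 0.77 ± 0.17 in KI (edgeR adjusted p = 2.08e-04 and 0.0021).

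Mybl1 (ENSMUSG00000025912; chromosome 1, 9667415 to 9700209, minus strand), the master regulator of pachytene genes and piRNA precursors, was the only regulator of the 10 that was upregulated. It ran from 66.5 to 113 CPM in WT (median 93.0), from 112 to 152 in KO (median 128) and from 125 to 155 in KI (median 137). KI lay wholly above WT, as 5.97% of all genes did, whereas 6.62% of genes did in KO, where Mybl1 overlapped WT only between KO 1 (112 CPM) and WT 6 (113 CPM). Mybl1 rose by 0.53 ± 0.13 log2 units in KO (95% interval 0.26 to 0.80, edgeR adjusted p = 0.0045) and by 0.64 ± 0.13 in KI (0.37 to 0.91, adjusted p = 8.26e-04; without the library labelled KI 4, 0.65 and adjusted p = 0.0014). Of 8 genes that MYBL1 is known to act on, Tdrd5, a piRNA pathway protein, was upregulated in both (0.33 ± 0.13 in KO, 0.37 ± 0.13 in KI) and 7 did not pass in either. Among all genes tested, 16.4% were higher in KO and 16.1% in KI, so 1 of 8 lies near those shares. Piwil1, which binds pachytene piRNAs, had 0.37 ± 0.16 in KO and 0.30 ± 0.16 in KI. Ovol1, a repressor that ends the pachytene stage, rose by 0.65 ± 0.17 and 0.72 ± 0.17.

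Mybl1 is also a gene of spermatocytes, so the markers of other cells stand beside it. The summed level of 8 spermatocyte markers ran from 828 to 1093 CPM in WT, from 891 to 1104 in KO and from 853 to 1232 in KI, none at 0. In KO, 2 of the 8 were higher (Sycp3, a rod of the meiotic chromosome axis, by 0.74, and Hormad1) and 1 lower (Spo11, which cuts DNA in meiosis). In KI, Sycp3 was higher by 0.75, and Spo11 and Syce3 were lower. Leydig cell markers were higher in both mutants for 6 of 6 genes, with summed levels of 9.76 to 19.7 CPM in WT, 29.9 to 52.0 in KO and 13.4 to 66.1 in KI. Of the macrophage and endothelial markers 3 of 7 were higher in each mutant, of spermatogonia markers 2 of 7 tested in KO and 1 of 7 in KI, and of Sertoli markers 2 of 7 tested were lower in each. The shares over all genes tested were 16.4% higher and 13.5% lower in KO, and 16.1% higher and 15.4% lower in KI. Counts of 1 or 2 in lists this small cannot be told from those shares. The part of these cells in the changes of Mybl1 and the other regulators was not tested.

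Markers of RS were abundant in all 3 genotypes. The sum of 10 RS genes, mostly of the acrosome, ran from 1359 to 2016 CPM in WT, from 985 to 1990.0 in KO and from 1001 to 1463 in KI. In KI, 10 of the 10 had a log2 fold change below 0, with a median of -0.28 beside 0.05 for all genes tested, and in KO 7 of the 10 did, with a median of -0.06 beside 0.03. The test was passed by 2 of the 10 in KO (Tssk2 and Catsper3, both lower) and by 3 in KI (Tssk1 in addition). Among all genes tested, 13.5% were lower in KO and 15.4% in KI. Spaca1 and Acrv1, proteins of the acrosome, had -0.41 and -0.37 in KI without passing, and Acr, the acrosomal protease, had 0.05 in KO and -0.01 in KI. The part of this shift in the changes of the regulators was not tested.

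The letters AACGG, a core that MYB proteins bind, were found on either strand in the promoters of 4 of the 8 matched regulators (Tcfl5, Rfx2, Sox30 and Gtf2a1l), against 17.4% of all promoters and 19.6% of genes. The promoters of Tcfl5 and Rfx2 are shown because each holds 3 copies, in capitals, as AACGG or as CCGTT where it lies on the other strand. Neither gene was higher in the mutants. The last copy in Rfx2 overlaps the letters GTTGCC, and the Tcfl5 stretch also holds the cAMP response element like letters in lower case. The letters AACGG were also found for 4 of 6 matched MYBL1 targets and for 4 of 8 matched genes of the cilium and flagellum. The CACGTG box that TCFL5 binds was found for 5 of 6 matched MYBL1 targets and for 1 of the 8 regulators, against 8.09% of genes. AACAAT, a core that SOX proteins bind, was found for 1 of the 8 regulators, against 12.2% of genes.
Tcfl5, chr2:180642692-180642941, minus strand: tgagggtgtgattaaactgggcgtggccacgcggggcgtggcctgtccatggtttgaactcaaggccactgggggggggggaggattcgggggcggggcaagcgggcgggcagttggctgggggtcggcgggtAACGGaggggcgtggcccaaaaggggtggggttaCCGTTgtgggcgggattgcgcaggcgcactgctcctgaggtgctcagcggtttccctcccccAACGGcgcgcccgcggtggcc
Rfx2, chr17:56831009-56831258, minus strand: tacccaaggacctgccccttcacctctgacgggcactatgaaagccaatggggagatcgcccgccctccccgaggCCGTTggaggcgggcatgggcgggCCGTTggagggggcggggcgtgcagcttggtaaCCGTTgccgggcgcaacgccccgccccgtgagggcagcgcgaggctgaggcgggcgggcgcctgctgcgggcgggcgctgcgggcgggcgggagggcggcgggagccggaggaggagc

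KI and KO did not differ in any of the 10 regulators by edgeR's quasi-likelihood test, in which 21 of all genes tested, 0.0997%, passed and 4.42% had an unadjusted p under 0.05. Of the 10, 0 had an unadjusted p under 0.05, and DESeq2 also called 0. The log2 difference of KI from KO was -0.13 ± 0.13 for Crem (95% interval -0.40 to 0.15), -0.19 ± 0.16 for Fhl5 (-0.52 to 0.15), -0.15 ± 0.18 for Sox5 (-0.52 to 0.22) and 0.11 ± 0.13 for Mybl1 (-0.16 to 0.38). Each interval includes 0 and reaches at least 0.38 log2 units in 1 direction. Without the library labelled KI 4, 0 of the 10 passed. The differences were then -0.16 for Crem, -0.23 for Fhl5, -0.17 for Sox5 and 0.12 for Mybl1. That of Taf7l went from -0.14 to -0.29, the greatest shift among the regulators.

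Within each mutant, 1 library was low in most regulators. KO 3 held the lowest level of 8 of the 10 among KO libraries, and KI 3 the lowest of 9 of the 10 among KI libraries. The same libraries had the lowest summed level of the 10 RS markers in their genotype (985 CPM in KO 3 and 1001 in KI 3) and the highest of the 8 spermatocyte markers (1104 and 1232 CPM, with KI 5 next at 1222). The part of these markers in the low levels was not tested. In WT, WT 3 held the highest of 6, and no library held the lowest of more than 3. Without KO 3 and KI 3, Crem, Fhl5, Sox5 and Mybl1 still passed in both mutants (4 regulators in KO, 5 in KI with Tcfl5), and the median of the regulators was -0.13 in KO and -0.22 in KI.

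With the close pairs of a genotype summed and the library labelled KI 4 left out, 3 WT, 5 KO and 3 KI libraries remained, and 2 regulators passed in each mutant: Crem, lower, and Mybl1, higher. Crem then had log2 fold changes of -0.62 and -0.73 (edgeR adjusted p = 0.0369 and 0.0376) and Mybl1 of 0.55 and 0.66 (adjusted p = 0.0733 and 0.0596). Fhl5 kept a similar size, -0.55 and -0.63, with adjusted p-values of 0.108 and 0.119 by edgeR, and so did Sox5, -0.56 and -0.63, with 0.148 and 0.180.

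The genes most like a regulator over the 18 libraries were sought among 8518 genes with a mean of at least 10 CPM, by Pearson's r of log2 CPM. For Crem these were Gm20389 (r = 0.987), Efcab9 (0.986), a subunit of the sperm calcium channel CatSper, and Gm6880 (0.983). For Rfx2 they were Ccnk (0.982), a cyclin of transcription elongation, Rab11fip5 (0.982) and Ppm1g (0.980). For Sox30 they were Zfp451 (0.974), Slc22a14 (0.966) and Odf3 (0.964), the last being the late gene above that passed in neither mutant. These values describe the pattern, with genotype and library differences both in it.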

How the data were processed

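RNA of RS from 6 WT, 6 KO and 6 KI libraries was read without polyA selection. The authors trimmed reads with cutadapt 3.4, aligned them to GRCm38 (mm10) with STAR 2.7.8a and counted fragments by strand with featureCounts (Subread 2.0.1), and deposited raw counts per gene. Symbols came from GENCODE M21, which matched 54079 of 54232 identifiers. Gene positions, strands and exon lengths were those deposited with the counts. A count of 0 columns had no library.

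In R 4.3.3, edgeR 4.0.16 was applied to the deposited counts, with filterByExpr (21058 genes left), TMM factors and 1 quasi-likelihood model of genotype over all 18 libraries. Any change was tested with glmQLFTest and a change past 1 log2 unit with glmTreat, with Benjamini-Hochberg adjustment over all genes and a threshold of 0.1. Errors beside log2 fold changes are standard errors, and intervals are at 95%. On simulated counts of KO against WT over 20301 genes, the first test called 16% of changes of 0.5 log2 units, 74% of 0.75, 90% of 1 and 100% of 2, with 18 false calls. Each size was given to 50 genes, far fewer changes than passed in the data, so these shares do not carry over to the data.

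Named genes were the 10 regulators, Ddx25, the genes of the lists, and the 3 genes most like Crem, Rfx2 and Sox30. The regulators and lists, the marker lists included, were chosen with earlier results of these data known. Motifs were chosen after the values were seen. Alternatives were DESeq2 1.42.0, its size factors, no filter, at least 10 counts in every library, the compared genotypes only, a replicate block, an adjusted p threshold of 0.05, close pairs of libraries summed, and each library left out. Leaving out KO 2 with the library labelled KI 4, and KO 3 with KI 3, was added after the data were seen. Libraries with the same number were not taken as pairs. Figures were drawn with matplotlib 3.10.9.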

Additional observations from a re-analysis of the deposited data

Results flagged for a closer look

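Ddx25 in the library labelled KI 4 was 56.9 CPM, while the other 5 KI libraries lay between 0.0456 and 0.519 CPM. The gap to the nearest of them was 0.992 of the range of the group, above Dixon's critical value at 95% for 6 samples. That critical value is passed by chance in about 1 in 20 groups. In all, 33 groups (the 10 regulators and Ddx25 in each genotype) were examined. The gap of 0.992 lay well above the critical value, so the rate of 1 in 20 does not apply to it. How often chance gives a gap of this size was not tested.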

How the results depend on the processing

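Over 10 alternatives and 18 fits that each left out 1 library, Crem stayed lower and Mybl1 higher past the threshold in both mutants, with edgeR or DESeq2 adjusted p-values of at most 0.0376 and 0.0733. The number of regulators called was 4 to 5 in KO and 4 to 6 in KI with 1 library left out, and 2 in each with close pairs summed, where fewer libraries remained. It was 0 past 1 log2 unit and 0 between KI and KO in every fit. With the replicate block, 4 regulators were called in KO (Tbpl1 not, adjusted p = 0.122) and 5 in KI. Libraries with the same number did not in general deviate together (r from -0.441 to 0.481, median -0.0382), so the numbers were not taken to pair them. The highest of these values, 0.481, was that of KO 3 and KI 3. Relatives and partners called in KO numbered 9 at an adjusted p under 0.05 and 9 with close pairs summed, and 6 in KI with close pairs summed. Genes of the cilium and flagellum called in KO were 1 with DESeq2, with its size factors or with the compared genotypes only, and 3 without KO 3 and KI 3. In KI they were 1 with the compared genotypes only and 2 without KO 3 and KI 3, and with 1 library left out 0 to 1 in either mutant. MYBL1 targets called in KO were 2 with the compared genotypes only, and 0 with DESeq2's size factors, no filter, an adjusted p under 0.05, close pairs summed, or either pair of libraries left out. In KI they were 2 with DESeq2, at least 10 counts, the compared genotypes only or either pair left out, and 0 with close pairs summed. With 1 library left out they were 0 to 2 in KO and 0 to 4 in KI. Single genes lost their call in 43 cases, with no change of direction, most often with close pairs summed, no filter or an adjusted p under 0.05, among them Crebbp, Ep300, Tdrd5 and Fhl4, and gained one in 6; with 1 library left out, the numbers were 41 and 16.

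Signs turned only for differences that did not pass. Gtf2a1l in KO was 0.0018 with at least 10 counts, 0.0007 with the compared genotypes only, 0.0189 without KI 4 and KO 2, and 0.0939 without KO 3 and KI 3, where Rfx2 in KO was 0.0594 and 0.0941. Taf7l in KI was 0.0066 with no filter, 0.0239 with the compared genotypes only and 0.0716 without KO 3 and KI 3, and Gtf2a1l in KI was -0.0278 with the replicate block. With 1 library left out, log2 values ran from -0.0611 to 0.0942 for Gtf2a1l, -0.1532 to 0.0946 for Rfx2 and -0.1323 to 0.0128 for Tbp in KO, and from -0.0865 to 0.1111 for Gtf2a1l and -0.1503 to 0.1625 for Taf7l in KI. In KI against KO they ran from -0.0857 to 0.1124 for Gtf2a1l, -0.2043 to 0.0440 for Rfx2, -0.0512 to 0.1384 for Tbpl1 and -0.2002 to 0.0049 for Tcfl5. The cause of these shifts was not tested. In the simulated counts 16% of changes of 0.5 log2 units were called, but far fewer genes changed there than passed in the data. That share therefore does not tell how often such changes were missed here.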
